A study of Homo sapiens with 2 samples.

Results

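Among the FLAG peaks of U87MG cells, 408 narrow peaks lay so close to another peak that their summits were 1000 bp or less apart. They are the peaks under 500 bp wide, on chromosomes 1 to 22 and X, whose nearest other summit, of a peak of any width, is within that distance. They were 408 of 8962 narrow peaks, or 4.55% (95% exact binomial interval 4.13 to 5.00), and 408 of 9717 peaks in the whole list. The other 8554 narrow peaks, with no summit within 1000 bp, are called isolated here. Width and summit position chose the members, and every value of a peak derives from the same pileup, so all values below are descriptions without a test. Members come in groups, and intervals of shares that treat them as independent are too narrow.

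The study mapped where FOXO3 binds in U87MG, a human glioblastoma cell line, by CETCh-seq, in which genome editing puts an epitope tag on the endogenous protein and an antibody against the tag is used for the immunoprecipitation. It comprises 1 FLAG ChIP library and 1 input chromatin library, both from LY294002-treated cells and both with the genotype given as WT. LY294002 inhibits phosphoinositide 3-kinase. No time or concentration of the treatment is given in the sources used here, nor whether the tagged cells were a clone or whether the input came from them. The intervals below therefore rest on 1 ChIP library and hold the counting error alone, and conditions cannot be compared. Intervals of folds hold the counting error of the ChIP pileup only. The background is taken as exact in them, so they are too narrow. Sequenced tags are also not independent molecules. A peak list holds no expression values, so the cell line was not checked against marker genes.

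FOXO3 is a forkhead transcription factor. When phosphoinositide 3-kinase signalling is active, the kinase AKT phosphorylates it and it is held in the cytoplasm, and when the pathway is inhibited it enters the nucleus and binds DNA. Forkhead factors recognise a short core sequence, and enhancers and promoters can hold several sites for the same factor within a short stretch. ChIP fragments are longer than the site itself, so a peak caller reports neighbouring sites as separate peaks only where the pileup of tags drops between them, and joins them into a wider peak where it does not. The genes and sequences at these positions were not analysed here.

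The 408 members fell into 208 groups of neighbouring summits, which also held 21 peaks of 500 bp or more. A group is a chain in which each summit is within 1000 bp of the next. Pairs made up 196 groups, 11 groups had 3 summits and 1 had 4. In all there were 221 neighbouring pairs within the groups. The groups spanned from 475 to 2184 bp, with a median of 953 bp. Nearly all groups were therefore plain pairs.

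Summits of the 221 pairs were a median of 654 bp apart (95% order-statistic interval 616 to 690), with quartiles of 455 and 814 bp. The closest summits were 217 bp apart, more than the 150 bp of an extended tag that the backgrounds imply, so the pileups at both summits counted different tags. The stretch between the 2 peak edges was 111 to 834 bp long, with a median of 388 bp. Counted over the whole kb, pairs were no more frequent within 1 kb than in the next kb. There were 221 pairs up to 1 kb (95% Poisson interval 193 to 252), 242 between 1 and 2 kb (212 to 274) and 159 between 2 and 3 kb (135 to 186). Between 9 and 10 kb 89 pairs were left (71.5 to 110). Outside the segments dense in peaks, which are described below, the first 3 counts were 142, 140 and 83. Within the first kb no summits were closer than 217 bp, and 6 pairs lay below 300 bp. Members were at least 150 bp wide and gaps at least 111 bp, so the first kb was not fully open to pairs. From 300 bp to 1 kb the bins of 100 bp held 20 to 45 pairs each, and between 1 and 2 kb 13 to 34. The whole-kb counts therefore do not show whether close pairs were in excess.

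**Figure D1:**
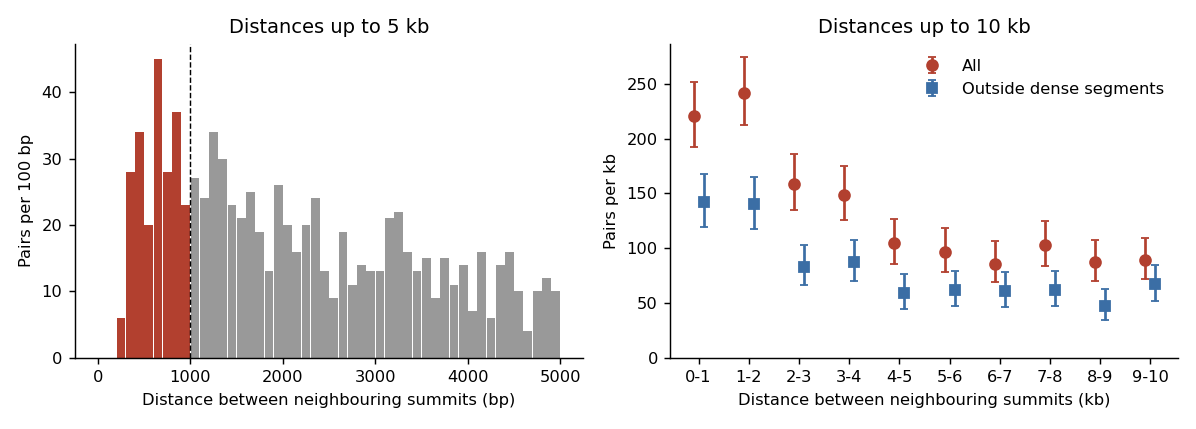
Number of pairs of neighbouring summits by their distance, left in 100 bp bins (red up to 1000 bp, dashed line at 1000 bp) and right in 1 kb bins with 95% Poisson intervals, for all pairs (red circles) and for pairs outside the 7 segments dense in peaks (blue squares). The count is 221 in the first kb, 242 in the second and 159 in the third.

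The limits of the rule cut through a continuous range. The 5 pairs just inside it had summit distances of 960, 972, 980, 987 and 987 bp, with folds of 3.44 and 3.22, 5.01 and 8.59, 9.84 and 3.69, 4.94 and 2.96, and 2.42 and 3.49. The 3 pairs just outside it were 1003, 1012 and 1016 bp apart, with folds of 6.54 and 3.44, 4.001 and 3.79, and 3.22 and 4.19. In width, the members just inside measured 472, 473 and 496 bp, with folds of 5.80, 3.11 and 8.25. The peaks just outside, also with a summit within 1000 bp, measured 504, 510 and 518 bp, with folds of 9.32, 7.13 and 3.92. All positions are hg19, with starts counted from 1.

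The members were of modest enrichment. The deposited fold enrichment, the ratio of ChIP pileup to background at the summit, had a median of 3.66 in the members (interval 3.61 to 3.84), with quartiles of 3.22 and 4.30, and ran from 1.22 to 14.5. In isolated narrow peaks the median was 3.87 (3.86 to 3.87), quartiles 3.34 and 4.60, and the highest value reached 22.9. A fold of 5 or more was seen in 57 of 408 members (14.0%, 10.8 to 17.7) and in 1556 of 8554 isolated peaks (18.2%, 17.4 to 19.0). A fold of 10 or more was seen in 1 member and in 63 isolated peaks (0.736%). Over the whole list the members thus lay below the isolated peaks at the median and in the share with a fold of 5 or more. This gap in the share was smaller outside the segments dense in peaks and absent inside them, as given below.

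The caller's −log10 q, its significance after adjustment, had a median of 4.61 in the members and of 5.21 in the isolated peaks. It reached 10 in 58 members (14.2%, 11.0 to 18.0) and in 1841 isolated peaks (21.5%, 20.7 to 22.4). Outside the segments dense in peaks these shares were 21.0% (16.2 to 26.4) and 24.2% (23.3 to 25.2). Inside them they were 2.05% (0.426 to 5.89) and 3.24% (2.28 to 4.46), so the intervals overlapped in both. The medians were 5.63 and 5.76 outside, and 3.54 and 3.52 inside. Over the whole list, widths had medians of 229 bp in the members and 236 bp in the isolated peaks. Width entered the rule as a limit, and inside that limit both sets were alike in width.

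Fold and p-value together give the ChIP pileup and the background behind each peak. The members had a median of 21 ChIP tags at the summit (20 to 23) over a background of 4.65 tags (4.51 to 4.80). The isolated peaks had 25 tags (24 to 25) over 5.38 tags (5.22 to 5.59). The lowest background, 3.65 tags, which the caller uses where no local window of the control exceeds its genome-wide level, applied to 99 of 408 members (24.3%, 20.2 to 28.7) and to 1693 isolated peaks (19.8%, 19.0 to 20.7). Of the members with a background under 20 tags, 157 of 406 (38.7%) had one that was a whole number of control tags, each worth 0.931 tags. For isolated peaks this share was 42.6%.

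These differences in pileup and background went with where the members lay. Of the 408 members, 146 (35.8%, 31.1 to 40.6) fell in 7 segments dense in peaks, which held 1110 of 8554 isolated peaks (13.0%, 12.3 to 13.7). A segment is a run of 1 Mb bins that each hold 15 or more summits, joined across at most 3 Mb, with 50 or more in total. Since they were defined by the number of peaks, a raised share of close neighbours in them follows in part from their definition. Inside them 11.6% of narrow peaks were members (9.90 to 13.5), against 3.40% outside (3.01 to 3.83).

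Compared within the same kind of region, members and isolated peaks had nearly the same pileup. Outside the dense segments both had a median of 26 tags, with an interval of 25 to 28 in the 262 members and of 26 to 26 in the 7444 isolated peaks. Inside them the medians were 18 tags (17 to 18) and 17 tags (17 to 18). The fold was equal inside the segments, with a median of 3.65 in both sets. Outside them it was 3.69 in the members (3.57 to 3.86) and 3.88 in the isolated peaks (3.87 to 3.92). A fold of 5 or more was seen in 19.5% of members (14.9 to 24.8) and 20.4% of isolated peaks (19.5 to 21.3) outside, and in 4.11% (1.52 to 8.73) and 3.33% (2.36 to 4.57) inside, so the gap of the whole list was within the intervals in both. Outside the segments the members' background was 5.80 tags (5.59 to 6.52), against 5.59 in the isolated peaks. The lowest background was found in 47.3% of members and 44.6% of isolated peaks inside, and in 11.5% (7.86 to 15.9) and 16.1% (15.3 to 16.9) outside. The excess of members at the lowest background in the whole list was thus not present outside the dense segments. There the order was the opposite, with intervals that overlapped.

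**Figure D2:**
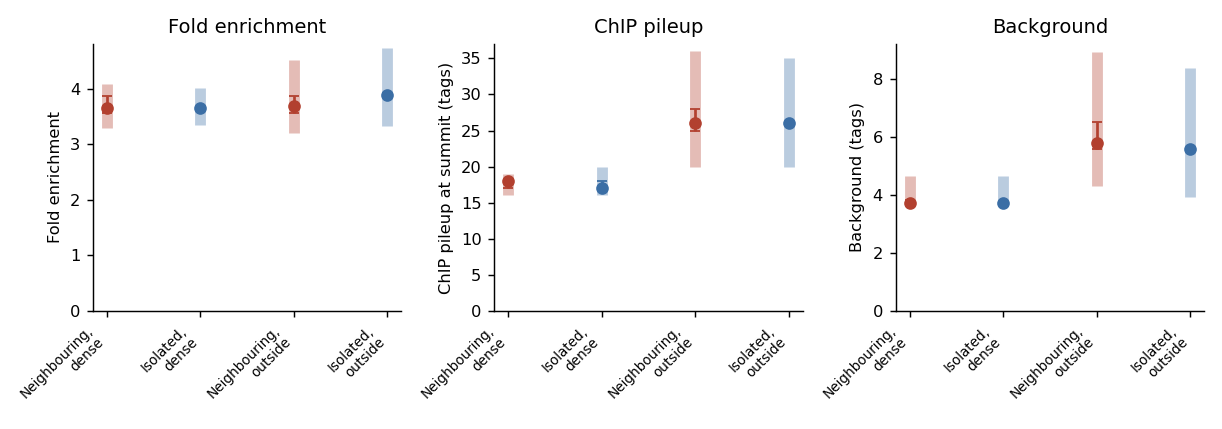
Fold enrichment, ChIP pileup in tags and background in tags of narrow peaks with a summit within 1 kb (red) and isolated narrow peaks (blue), inside and outside the dense segments. Points are medians with 95% order-statistic intervals and bars run between the quartiles, and pileup differs by region (18 and 17 tags inside, 26 and 26 outside) more than by neighbourhood.

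Outside the dense segments narrow peaks of every strength had a close neighbour at shares whose intervals overlapped. There the share of members was 3.73% (2.72 to 4.97) among 1181 narrow peaks with a −log10 q under 3, 3.22% between 3 and 5, 3.72% between 5 and 10 and 2.87% between 10 and 20. Among 606 peaks at 20 or more it was 3.14% (1.90 to 4.85). Over all narrow peaks the share fell from 6.14% (5.02 to 7.42) under 3 to 2.96% (2.10 to 4.04) between 10 and 20, and 55 of the 99 weakest members lay in dense segments. Among peaks of 500 bp or more, 21 of 708 (2.97%, 1.85 to 4.50) had another summit within 1000 bp.

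Surroundings beyond the first kb were also richer in peaks around members. In the 12 groups of 3 or more summits, with 37 peaks, a summit of the same group can lie over 1 kb away. It can then count as a neighbour, which isolated peaks cannot have in this way. Both peaks of a pair can also count the same further summit, so these shares follow in part from the rule. Another summit lay 1 to 10 kb away from 168 of 408 members (41.2%, 36.4 to 46.1) and from 1741 isolated peaks (20.4%, 19.5 to 21.2). Outside the dense segments the shares were 24.4% (19.3 to 30.1) and 14.9% (14.1 to 15.7). Inside them they were 71.2% (63.2 to 78.4) and 56.9% (54.0 to 59.9). At 1 to 100 kb, members outside the segments had a neighbour in 75.2% and isolated peaks in 63.5%.

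The peaks of a pair differed in strength about as much, at the median, as neighbouring peaks of the list in general. The ratio of the higher to the lower fold had a median of 1.27 (1.22 to 1.33), with quartiles of 1.12 and 1.52. Over all 9647 pairs of neighbouring summits at any distance the median was 1.29 (1.28 to 1.30), so it is not a result about close pairs. The median fold was 4.30 for the stronger peak of a pair and 3.36 for the weaker. The 95% Poisson intervals of both folds were separate in 22 of 221 pairs (9.95%, 6.34 to 14.7). Over all neighbouring pairs this was the case in 13.8%, which lies within that interval. Among pairs 1 to 2 kb apart it was 7.85% (4.79 to 12.0). The fold intervals take the background as exact. Whether all 22 pairs would stay separate with the counting error of the control was not tested.

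Across the 221 pairs, the background of both peaks went together more than the fold did. The Spearman correlation was 0.67 for background and 0.04 for fold. In the 142 pairs outside the dense segments it was 0.67 and 0.13, and in the 79 pairs inside it was 0.30 and -0.25. In pairs 1 to 2 kb apart these values were 0.65 and 0.12. Over all neighbouring pairs they were 0.43 and 0.06. All peaks share the library, and nearby backgrounds can come from the same control window, so these are descriptions. The background was identical, within 0.001 tags, in 41 pairs (18.6%, 13.7 to 24.3), of which 29 had the lowest background at both peaks. Over all neighbouring pairs this share was 10.5%. In pairs 1 to 2 kb apart it was 15.7% (11.4 to 20.9), so it was not particular to the first kb.

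Pairs differed between the dense segments and the remaining span. In the 79 pairs inside, the median fold ratio was 1.18 (1.13 to 1.22) and 1 pair (1.27%, 0.032 to 6.85) had separate intervals. In the 142 pairs outside, the ratio was 1.36 (1.27 to 1.45) and 21 pairs (14.8%, 9.39 to 21.7) had separate intervals. Both peaks sat at the lowest background in 25 of the 79 pairs inside (31.6%) and in 4 of the 142 outside (2.82%). Pileups inside were low, with a median of 18 tags in members, which gives wide Poisson intervals. Folds of isolated peaks also ranged less inside, with quartiles of 3.36 and 4.02, against 3.33 and 4.73 outside. Ratios of more distant neighbours were not computed by region, so these values are not a result about close pairs.

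Across distance classes within the first kb, the median fold ratio was 1.21 in 34 pairs at 200 to 400 bp (1.12 to 1.33), 1.28 in 54 pairs at 400 to 600 bp, 1.25 in 73 pairs at 600 to 800 bp and 1.32 in 60 pairs at 800 to 1000 bp (1.19 to 1.49). Separate intervals were found in 1, 3, 12 and 6 of these pairs. The median fold of the stronger peak was lowest in the closest pairs, 3.95 at 200 to 400 bp against 4.30 to 4.40 in the other classes. No interval was computed for these medians, and the part of the width limit in this order was not tested.

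**Figure D3:**
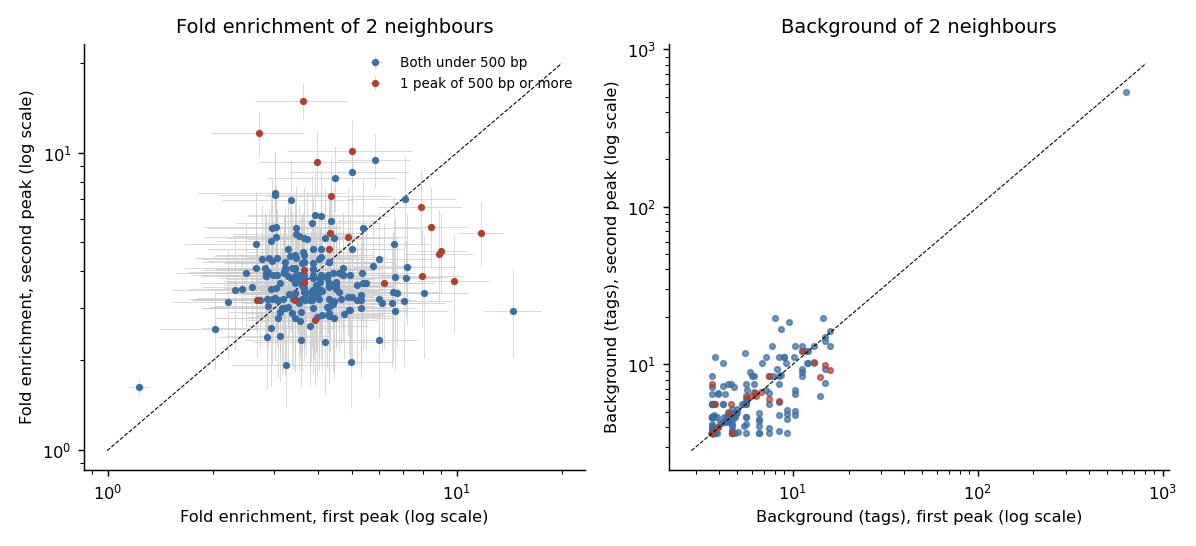
Fold enrichment (left, with 95% Poisson intervals) and background in tags (right) of the first peak, by position, against the second peak of each of the 221 pairs, on log scales with the line of equality dashed. Blue pairs have both peaks under 500 bp and red pairs have 1 peak of 500 bp or more, and backgrounds follow the line (Spearman 0.67) while folds do not (0.04).

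In 21 pairs the neighbour of the member was a peak of 500 bp or more, and it was nearly always the stronger one. The wide peaks had a median fold of 7.90, from 2.67 to 14.9, and the members beside them had a median of 3.98, from 2.71 to 6.59. The wide peak was stronger in 20 of 21 pairs. The exception, named after its values were seen, was on chromosome 14, where a wide peak at chr14:58299554-58300193 had a fold of 2.67 and its narrow neighbour at chr14:58300733-58300966 a fold of 3.20. Separate intervals were found in 9 of the 21 (42.9%, 21.8 to 66.0) and in 13 of the 200 pairs of narrow peaks (6.50%, 3.51 to 10.9). Width and fold derive from the same pileup, so this order is not independent of the width limit.

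The largest contrast in a pair was on chromosome 1. The peak at chr1:198125888-198126284 reached a fold of 14.5 (12.0 to 17.4), the highest of all members, with 113 ChIP tags against 6.84. Its neighbour at chr1:198126751-198126918, 698 bp away, had a fold of 2.94 (2.04 to 4.11), with 32 ChIP tags against 10.2. The fold ratio was 4.95. A strong and a weak peak thus stood side by side.

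The next largest contrasts involved 3 wide peaks and 1 further pair of narrow ones. On chromosome 1, a member at chr1:145437520-145437814 with a fold of 2.71 (1.97 to 3.63) lay beside a wide peak at chr1:145437998-145438537 with a fold of 11.6 (9.71 to 13.8). On chromosome 4, the member at chr4:174255458-174255638 had a fold of 3.61 (2.64 to 4.84) and the wide peak at chr4:174256004-174256747 one of 14.9 (12.9 to 17.1). On chromosome 9, the wide peak at chr9:4832902-4833649 had a fold of 9.84 (7.70 to 12.4) and the member at chr9:4834242-4834425 one of 3.69 (2.48 to 5.31). The narrow pair was on chromosome 5, with a fold of 5.97 (4.52 to 7.74) at chr5:168527126-168527380 and 2.35 (1.49 to 3.53) at chr5:168527815-168528033. There the background was the same, 8.38 tags, and the pileups were 55 and 21 tags, so the ratio came from the ChIP tags alone. In all 4 the intervals were separate.

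At the other extreme, 5 of 221 pairs (2.26%, 0.739 to 5.20) had identical folds, 4 of them with both peaks at the lowest background. This share was 0.84% over all neighbouring pairs, within that interval, and 1.65% in pairs 1 to 2 kb apart. Both peaks of the pair at chr1:115484384-115484617 and chr1:115484765-115485040 had 17 tags over the lowest background and a fold of 3.87. Those at chr9:41963835-41963986 and chr9:41964519-41964673 had 19 tags each and a fold of 4.30. Those at chr7:125157843-125158087 and chr7:125158700-125158931 had 16 tags each and a fold of 3.65. On chromosome 5, the peaks at chr5:70115527-70115692 and chr5:70115822-70116119 had 19 tags each and a fold of 4.30. The fifth pair, at chr10:62715910-62716143 and chr10:62716612-62716865, had 16 tags each over a background of 3.72 tags and a fold of 3.60. Over the same background the fold takes a fixed value for each whole number of tags, so equal tag counts give ties.

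The 10 groups holding the members of highest fold were all pairs, on 8 chromosomes, and 1 of them lay in a dense segment. Besides the chromosome 1 pair with the fold of 14.5, a second pair on that chromosome was strong at both summits. The peaks at chr1:201885770-201886128 and chr1:201886588-201887059, 781 bp apart, had folds of 5.83 (4.57 to 7.35) from 70 tags and 9.46 (7.65 to 11.6) from 93 tags. On chromosome 2, the peaks at chr2:188417866-188418276 and chr2:188418695-188418924, 868 bp apart, had 32 tags each, with folds of 7.09 (4.92 to 9.93) and 6.99 (4.85 to 9.77). This was the most even of the strong pairs.

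In the other groups of this set a stronger peak stood beside a weaker one. On chromosome 10, the pair at chr10:8353907-8354172 and chr10:8354770-8355226, 972 bp apart, had folds of 5.01 (3.31 to 7.30) and 8.59 (6.73 to 10.8). A second chromosome 10 pair, at chr10:89605129-89605498 and chr10:89605783-89606025, had folds of 7.19 (5.07 to 9.92) and 4.14 (2.63 to 6.23). On chromosome 3, the peak at chr3:105541819-105541970 had a fold of 4.48 (2.85 to 6.74) and the one at chr3:105542196-105542691 a fold of 8.25 (6.34 to 10.6). In each of these 3 pairs the intervals overlapped, while each fold lay outside the interval of its neighbour. The difference itself was not tested.

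In 4 further pairs the intervals were separate. On chromosome 5, the peak at chr5:52714630-52715088 had a fold of 8.03 (5.84 to 10.8) and the peak of 150 bp at chr5:52715205-52715354, 412 bp away, had 3.36 (2.04 to 5.27), over the same background of 4.36 tags. On chromosome 15, chr15:56209359-56209604 had a fold of 3.01 (1.79 to 4.77) and chr15:56210022-56210422 had 7.31 (5.10 to 10.2). On chromosome 22, chr22:30706289-30706754 had a fold of 7.14, with an interval that starts at 5.59, and chr22:30707393-30707616 had 3.78 (2.78 to 5.03). The pair in the dense segment, at chr13:76278670-76279036 and chr13:76279474-76279877, had folds of 3.01 (2.06 to 4.25) and 7.18 (5.20 to 9.69). These came from 30 and 41 ChIP tags over backgrounds of 9.31 and 4.85 tags, so the backgrounds differed more than the pileups. Together with the 2 chromosome 1 pairs, intervals were separate in 6 of the 10 groups, which were chosen for a high fold at 1 peak.

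Pairs in which both peaks reached a −log10 q of 10 were few. There were 11 of 221 (4.98%, 2.51 to 8.73), a further 50 had 1 such peak and 160 had none. Over all neighbouring pairs 7.85% had such q at both peaks, which lies within that interval. In pairs 1 to 2 kb apart it was 4.55%, so the low share is not a result about close pairs. Among the 142 close pairs outside the dense segments it was 7.75% (3.93 to 13.4). Of the 11, 5 included a wide peak, and all 11 lay outside the dense segments. An example, chosen after its values were seen, is on chromosome 11, where a wide peak at chr11:12159679-12160370 with 164 tags and a fold of 11.8 had a member at chr11:12160709-12161021 with 60 tags and a fold of 5.38 beside it.

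Of the 12 groups with 3 or more summits, 6 lay in dense segments and 6 outside, and all 37 of their peaks were narrow. The only group of 4 was on chromosome 13, at chr13:69318999-69321182, with folds of 3.44, 4.51, 3.65 and 3.39 from 15, 20, 16 and 15 tags. Each of its peaks sat at or just above the lowest background. The other chromosome 13 groups, at chr13:66294507-66295741 and chr13:67809678-67811244, had folds from 3.44 to 4.08 and from 3.01 to 4.02. All folds in these 3 groups overlapped in their intervals.

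Chromosome 7 had 4 groups of 3. Within one dense segment they lay at chr7:125063897-125065268, with folds from 3.57 to 4.58, at chr7:125396661-125398152, with 3.22 to 4.08, and at chr7:125665016-125667081, with 3.04 to 5.62. The first of these holds the closest summits of the whole set, 217 bp apart. The fourth lay outside, at chr7:134309446-134311371, with folds from 2.60 to 3.80. Chromosome 15 had a group at chr15:102485399-102487211, where the folds of 3.66, 3.50 and 3.84 were nearly equal.

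Outside the dense segments, 3 groups on chromosome 1 lay on raised backgrounds. They were at chr1:120593416-120595261, with folds of 4.73, 2.88 and 3.05, at chr1:145098070-145099691, with 4.32, 3.04 and 3.50, and at chr1:145225933-145227953, with 3.11, 2.42 and 3.49. Their backgrounds ran from 8.95 to 13.0 tags, against a median of 4.65 over all members. Among members outside the dense segments the median was 5.80 tags and the third quartile 8.94. The part of the raised background in the calls was not tested. The group on chromosome 4, at chr4:114366379-114368561, had folds of 6.60 (5.13 to 8.35), 4.94 (3.29 to 7.15) and 2.96 (1.94 to 4.35) in that order along the chromosome. It was the only 1 of the 12 groups in which the intervals of any 2 peaks, the first and the third, were separate.

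**Figure D4:**
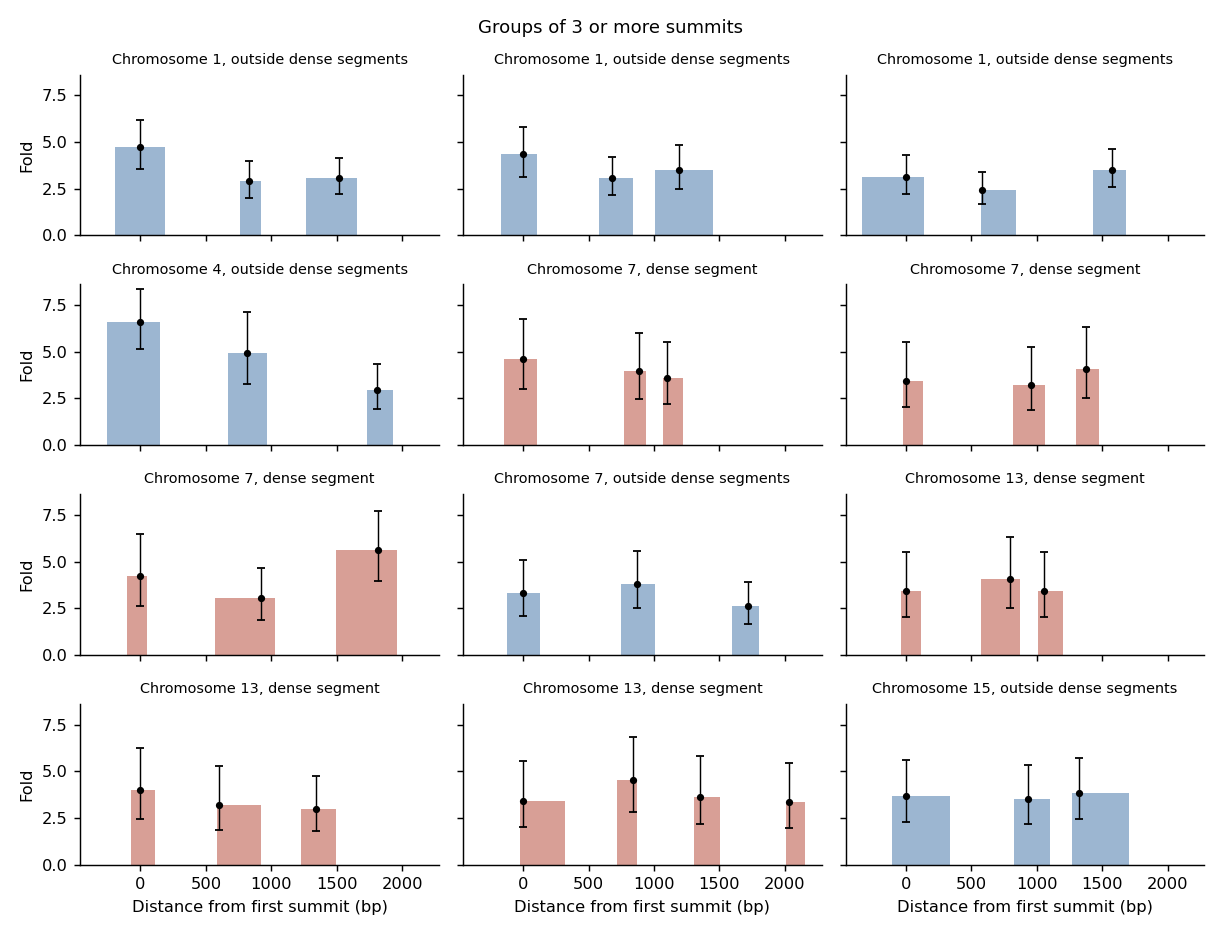
The 12 groups of 3 or more summits, 1 panel each, with fold enrichment against distance from the first summit in bp. Bars show the extent of each peak, black points its summit with the 95% Poisson interval, and red panels lie in dense segments (folds from 3.01 to 5.62) and blue panels outside (2.42 to 6.60).

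The 5 closest pairs had summit distances of 217, 236, 253, 260 and 265 bp. The first and the third belong to groups of 3 described above, on chromosomes 7 and 13. The pair at chr1:9223651-9223817 and chr1:9223929-9224136 had the narrowest gap, 111 bp, with folds of 3.12 and 2.92 over backgrounds of 11.2 and 13.0 tags. The pair at chr12:58922955-58923120 and chr12:58923243-58923436 had folds of 4.28 and 3.89 over 4.61 and 4.65 tags. The pair at chr10:17104820-17105006 and chr10:17105199-17105375 had folds of 2.49 and 3.95. In none of the 5 closest pairs were the intervals separate.

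The members of lowest fold sat on high control signal. This follows from the calling, since over the lowest background the smallest member pileup, 14 tags, already gave a fold of 3.22. On chromosome 16, the peaks at chr16:46404108-46404311 and chr16:46404546-46404698 had folds of 1.22 (1.14 to 1.31) and 1.63 (1.52 to 1.74) from 771 and 879 tags over backgrounds of 630 and 539 tags. They were the only members on a background of at least 10 times the lowest. The next lowest folds were 1.94 at chr9:129895992-129896162, 1.97 at chr3:142166743-142166966 and 2.02 at chr7:130578204-130578382, over 18.6, 16.8 and 15.8 tags. At these sites a large part of the ChIP tags was matched by the control.

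Members were found on 22 of the 23 chromosomes. Chromosome 13 held 84 (20.6% of all members), chromosome 1 held 61, chromosome 7 held 49 and chromosome 10 held 43. As a share of narrow peaks, members were most frequent on chromosome 10 (8.78%, 6.42 to 11.6), chromosome 18 (8.76%, 4.61 to 14.8), chromosome 13 (8.09%, 6.51 to 9.92) and chromosome 1 (7.31%, 5.64 to 9.30). These 4 shares overlapped in their intervals. On chromosome X, 0 of 80 narrow peaks were members, which allows a share of up to 3.75% by the limit of 3 counts and of up to 4.51% by the exact binomial interval used for the other chromosomes.

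Without the dense segments, chromosomes 7 and 10 had shares of 3.16% (1.89 to 4.95) and 2.95% (1.48 to 5.22), near the 3.40% of all narrow peaks outside. Chromosome 13 had 6.22% (3.44 to 10.2), from 14 members. Chromosome 1 remained at 7.40% (5.65 to 9.48), with 57 members in 28 groups spread along its length, and no 1 Mb bin of it held more than 7. Chromosome 18, which had no dense segment and 137 narrow peaks, had 12 members in 6 separate pairs. Its pairs had folds from 2.77 to 6.54, and the strongest was at chr18:8116452-8116905, with a fold of 6.54 (4.64 to 8.99) beside 3.39 (1.99 to 5.45) at chr18:8117181-8117399. With 23 chromosomes looked at and no test made, these shares only describe where the pairs were.

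**Figure D5:**
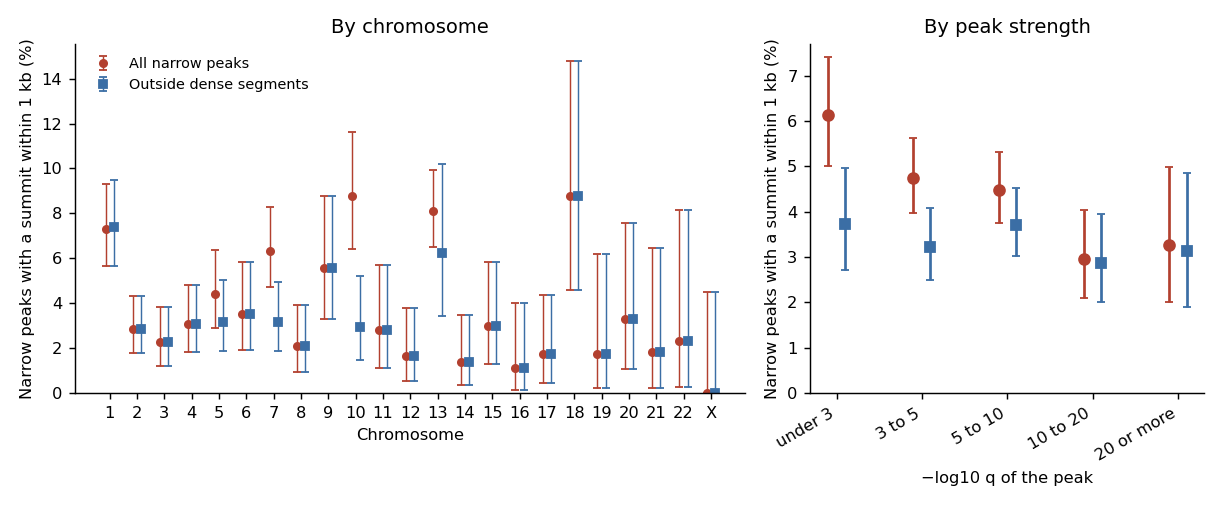
Percent of narrow peaks with another summit within 1 kb, with 95% exact binomial intervals, by chromosome (left) and by −log10 q of the peak (right), for all narrow peaks (red circles) and those outside the dense segments (blue squares). Chromosomes 7 and 10 drop from 6.33% and 8.78% to 3.16% and 2.95% without the segments, chromosome 1 does not, and by strength the shares outside lie between 2.87% and 3.73%.

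The dense segments differed in how many of their narrow peaks were members. The segment on chromosome 10, from 52072908 to 54624220, had the highest share, 32 of 117 (27.4%, 19.5 to 36.4), in 17 groups. The segments on chromosome 7, from 122030116 to 126999210 and from 135074614 to 137809874, had 15.03% (9.77 to 21.7) and 15.4% (6.88 to 28.1). On chromosome 5 the share was 15.8% (7.48 to 27.9), from 9 members. The segments of chromosome 13, from 63075690 to 72874662 and from 76064285 to 94982206, had lower shares of 9.83% (6.90 to 13.5) and 7.71% (5.46 to 10.5). On chromosome 1 it was 6.25%, from 4 members. The chromosome 10 segment thus stood above both chromosome 13 segments with separate intervals, which are too narrow because members come in groups. It was also denser in peaks, with 124 in 2.55 Mb, against 360 in 9.80 Mb and 480 in 18.9 Mb on chromosome 13. The part of this density in the shares was not tested.

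The 32 members of the chromosome 10 segment had folds from 2.87 to 5.37, with a median of 3.65, and their median pileup was 17 tags. In the bin from 53 to 54 Mb, 18 members made 9 pairs, and in the bin before it 12 members belonged to 7 groups. Within the bin from 53 to 54 Mb, 3 pairs followed one another closely. They lay at chr10:53226970-53227179 and chr10:53227433-53227630, at chr10:53229432-53229591 and chr10:53230104-53230525, and at chr10:53232120-53232323 and chr10:53232496-53232782. Their folds were 2.87 and 3.96, 3.28 and 3.04, and 3.43 and 3.36. The strongest member of the segment was at chr10:54003277-54003685, with a fold of 5.37 from 24 tags. In the other segments median folds of members ran from 3.34 to 4.30, and 1 member of a dense segment exceeded a fold of 6, that of the chromosome 13 pair with the fold of 7.18.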

How the data were processed

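The data are 1 peak list, from the FLAG library, and no value of the input was used beyond what the list implies. Per the submitters' processing notes, Trimmomatic, HISAT2 and MACS2 were used with build hg19. The sources used here give no versions, parameters or read filters. The deposited list gives for each peak a position, a summit, a fold enrichment (ratio), a −log10 p-value and a −log10 q-value. The deposited score is 10 times this q value with the decimals dropped.

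Pileup and background were solved from the fold and the upper Poisson tail p, with 1 tag added to both in the fold, which returned the deposited p in all peaks within 5.0e-04 on the −log10 scale. The solution was tested on simulated data. Of the backgrounds under 20 tags that were neither the lowest nor whole control tags, 3599 of 3599 were whole multiples of the step of a 10 kb window with 150 bp tags. Depth is known only through these pileups. Intervals are 95% exact Poisson (pileup), exact binomial (shares) or order-statistic (medians). Those of folds scale the pileup interval by a background taken as exact. No test was made, since peaks of 1 library are not replicates. Python 3.11.15, pandas 2.3.3 and scipy 1.17.1 were used.

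Regions named are the 10 groups with the highest member fold, all groups of 3 or more summits, the 5 shortest and 5 longest distances and 3 just outside, the 5 largest and 3 smallest fold ratios (5 with ties, which were added after their values were seen), members on a background of at least 10 times the lowest, and the 5 lowest folds. Other regions were named after their values were seen. The members, lists and dense segments were chosen with earlier results of these data known. Motifs and gene starts were not analysed, since no hg19 sequence or annotation was used here.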

Additional observations from a re-analysis of the deposited data

How the results depend on the processing

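The number of members depended on the rule. It was 408, and became 133 with a summit distance of 500 bp, 802 with 2000 bp, 94 at a −log10 q of at least 5 and 262 without the dense segments, a setting chosen after seeing the data. It was 429 with all widths and 406 without high backgrounds. The members' median fold of 3.66 became 3.54 at 500 bp and 4.30 at a −log10 q of at least 5, against 3.87 and 4.52 in isolated peaks, and was below that of the isolated peaks in all settings run. The median background of 4.65 tags became 7.12 at a −log10 q of at least 5 and 5.80 without dense segments, where isolated peaks had 5.87 and 5.59, so the order of the 2 sets turned. The share at the lowest background, 24.3%, became 11.7% and 11.5% in these settings, against 15.1% and 16.1%, and turned too. Pairs with separate intervals, 9.95%, became 4.41% at 500 bp, 21.8% at a −log10 q of at least 5 and 14.8% without dense segments. The cause of these changes was not tested. Of 27 alternatives, 14 stayed within the interval or 1.5 times the count. Among these, the share of pairs with separate intervals could not change with all widths, since pairs of any width were already counted. Few members had a high background to leave out. The planned search for FOXO motifs and gene starts was not run. No paired analysis was possible because there was 1 ChIP library. The smallest pileup was 14 tags in a member and 13 in an isolated narrow peak, and neighbours too weak to be called are not in the list.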

Other observations

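On sequences other than chromosomes 1 to 22 and X, 47 peaks were called, of which 38 were narrow. Of these, 2 narrow peaks, on 1 sequence, had summits within 1000 bp of each other, with folds of 2.67 and 3.47 over backgrounds between 9.37 and 12.1 tags.

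The position of the summit inside its peak was looked at after the other values were seen. In the second peak of a pair, by position, the summit lay in the part of the peak before its midpoint, which faces the neighbour, in 132 of 221 pairs (59.7%, 52.9 to 66.3). Over all neighbouring pairs at any distance this share was 52.1% (51.1 to 53.1), just below that interval, and in pairs 1 to 2 kb apart it was 53.7% (47.2 to 60.1). In the first peak it lay past the midpoint in 109 of 221 (49.3%, 42.6 to 56.1). Over both peaks the summit was on the side of the neighbour in 241 of 442 cases (54.5%, 49.8 to 59.2), and over all neighbouring pairs in 49.7%. Among isolated narrow peaks it lay past the midpoint in 47.1% (46.1 to 48.2). The second peak of a pair was the stronger in 98 of 221 (44.3%, 37.7 to 51.2), and 5 pairs had identical folds. Over all neighbouring pairs the second was the stronger in 49.7%, which lies within that interval. In pairs 1 to 2 kb apart it was 43.0%, so this is not a result about close pairs.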
